A study of Mus musculus with 6 samples.

Results

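The potassium channel genes of the mouse were followed through 6 RNA-seq libraries of blood vascular endothelial cells (BECs) and lymphatic endothelial cells (LECs) in which the histone H3 lysine methyltransferase gene Dot1l had been deleted or overexpressed. Every gene symbol that starts with Kcn and goes on with a lower case letter was taken, which gave 98 of the 24421 symbols in the count table. The set holds 40 voltage-gated pore-forming subunits, 15 inward rectifiers, 14 two-pore channels, 8 calcium- or sodium-activated channels, 17 auxiliary or regulatory subunits and 4 noncoding genes. Potassium channels let potassium ions leave or enter the cell along their gradient and so set the membrane potential. In endothelium, opening of calcium-activated and inward rectifier channels hyperpolarizes the cell, which favours calcium entry and nitric oxide production, and the hyperpolarization can spread through gap junctions to the smooth muscle. Voltage-gated channels are best known from nerve and heart muscle, where they end the action potential, and two-pore channels carry a steady leak current.

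Each condition had 1 library. BECs of E15.5 embryo skin came from Tie2-Cre(+); Dot1l 2f/2f embryos (cKO) and from Tie2-Cre(-); Dot1l 2f/2f embryos (Cont), whose genotype label reads wild type, so both carried the floxed Dot1l alleles. Tie2-Cre is active in endothelium and also in blood cells. The skin BECs were the F4/80-, CD45- and Lyve1-negative fraction, described by the study as CD31-positive, with RNA of 2 to 3 embryos pooled for each genotype. The cultured cells were yolk sac BECs (CRL-2581) and dermal LECs (C57-6064L), each 1 line, transduced with lentivirus that carried dCas9-VP64, a transcriptional activator without nuclease activity, and guide RNAs to the Dot1l promoter (OE-BECs, OE-LECs) or with empty lentivirus (Cont), then sorted for EGFP, with cells of 2 to 3 flasks in each library. A ratio therefore compares 2 libraries, and its 95% interval covers counting error only, because the reads carry no molecular identifiers and there is no replicate.

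Dot1l had 762 reads in Cont and 944 reads in cKO skin BECs, a log2 ratio of -0.07 (95% counting interval -0.21 to 0.07), so the count over the whole gene was not lower in the library labelled cKO; a count per gene does not separate the floxed part. It was higher in OE-BECs, with 1972 and 4208 reads in Cont and OE (log2 ratio 1.48, interval 1.40 to 1.55) and in OE-LECs, with 2490 and 6720 reads (1.20, 1.13 to 1.27). The libraries summed to between 8863349 and 31032461 reads. All 8 blood endothelial markers were expressed in every library, but Prox1, which defines lymphatic identity, had 0 reads in all 4 cultured libraries, those labelled LEC included, and 1304 and 883 reads in the skin BEC libraries. The lymphatic markers Lyve1, with 52184 and 60898 reads, and Flt4, with 2785 and 4038 reads, were expressed in Cont and OE-LECs. The listed lymphatic markers Pdpn and Ccl21a had 0 reads in both of these libraries, and Reln had 1 read in each. Cont and OE-BECs of the yolk sac line also had 10680 and 14786 reads of Lyve1 and 2552 and 1369 reads of Flt4. Lyve1, used in the sort to remove LECs, had 9105 and 19959 reads in the skin libraries. In bulk RNA, fewer cells of a type and less RNA per cell cannot be told apart.

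The cultured lines shared a fall of the inward rectifier gene Kcnj2 and the transient outward channel gene Kcnd3 on Dot1l overexpression, and the stretches just before the starts of both genes are shown because these 2 members are the ones on which the comparison of the lines turns. The sequences are 150 bases from RefSeq (GRCm38.p6, the assembly called mm10), both on the plus strand, chr11:111066014-111066163 for Kcnj2 and chr3:105451740-105451889 for Kcnd3. The Kcnd3 window ends at the RefSeq start, and GENCODE M21 places the start of the gene at 105452330. Capitals mark matches, on either strand, to TATAAA (the core of the TATA box), to CCAAT (a site of nuclear factor Y), to CACGTG (an E-box), to GGGCGG (the GC box of Sp factors) or to CAGGAAG (an ETS core). None of them overlaps another in these windows.
Kcnj2: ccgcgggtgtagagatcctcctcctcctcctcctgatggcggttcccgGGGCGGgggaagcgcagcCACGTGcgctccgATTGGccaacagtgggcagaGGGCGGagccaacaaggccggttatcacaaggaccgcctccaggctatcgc
Kcnd3: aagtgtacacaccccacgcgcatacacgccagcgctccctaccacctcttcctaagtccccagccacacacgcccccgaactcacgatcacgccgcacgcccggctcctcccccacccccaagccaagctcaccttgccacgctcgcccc
The Kcnj2 window held the GC box, the E-box and, on the minus strand, the CCAAT motif, and the Kcnd3 window held none of the 5 motifs. Over 250 bases upstream, CCAAT was found in 33.9% of 32851 promoter windows of all genes and in 29.9% of the 97 windows that matched 72 of the 98 potassium channel genes. The other shares were 32.7% and 44.3% for GGGCGG, 6.02% and 6.19% for CACGTG, 10.8% and 17.5% for CAGGAAG, and 12.4% and 3.09% for TATAAA. The median GC content was 52.4% over all windows and 58.8% over those of the potassium channel genes. A match is a run of letters and was not tied to binding of any factor.

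More potassium channel genes had reads in the skin BEC libraries than in those of the cultured lines. At least 1 read fell on 77 and 78 of the 98 genes in the skin libraries and on 43 to 51 in the cultured ones, although the skin libraries were the shallowest, and 50 genes reached 1 CPM (the count per 1000000 reads) in each skin library against 10 to 17 in culture. Over all 24421 symbols, 17760 and 18027 had a read in the skin libraries and 15016 to 15808 in the cultured ones. The 97 genes other than Kcnq1ot1 summed to 376 and 408 CPM in skin Cont and cKO BECs, 189 and 113 in Cont and OE-BECs, and 163 and 136 in Cont and OE-LECs. Reads were found in skin and in none of the 4 cultured libraries for 18 genes, in culture alone for 5, and nowhere for 9. Among the genes without a read were Kcnj16, Kcnh5, Kcnk16 and Kcna10, for which a count of 0 allows up to 0.0967 CPM in the deepest library and 0.338 CPM in the shallowest (3 reads). Of the 59 genes with at least 10 reads in some library, 45 had a higher CPM in both skin libraries than in any cultured library, 5 had a higher CPM in all 4 cultured libraries and 9 overlapped. A gene could enter this count through the skin libraries alone. Neither this count nor that of the genes read in skin or culture alone was made over all genes. Skin and cultured libraries differ in tissue, culture and transduction, which cannot be told apart here.

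**Figure D1:**
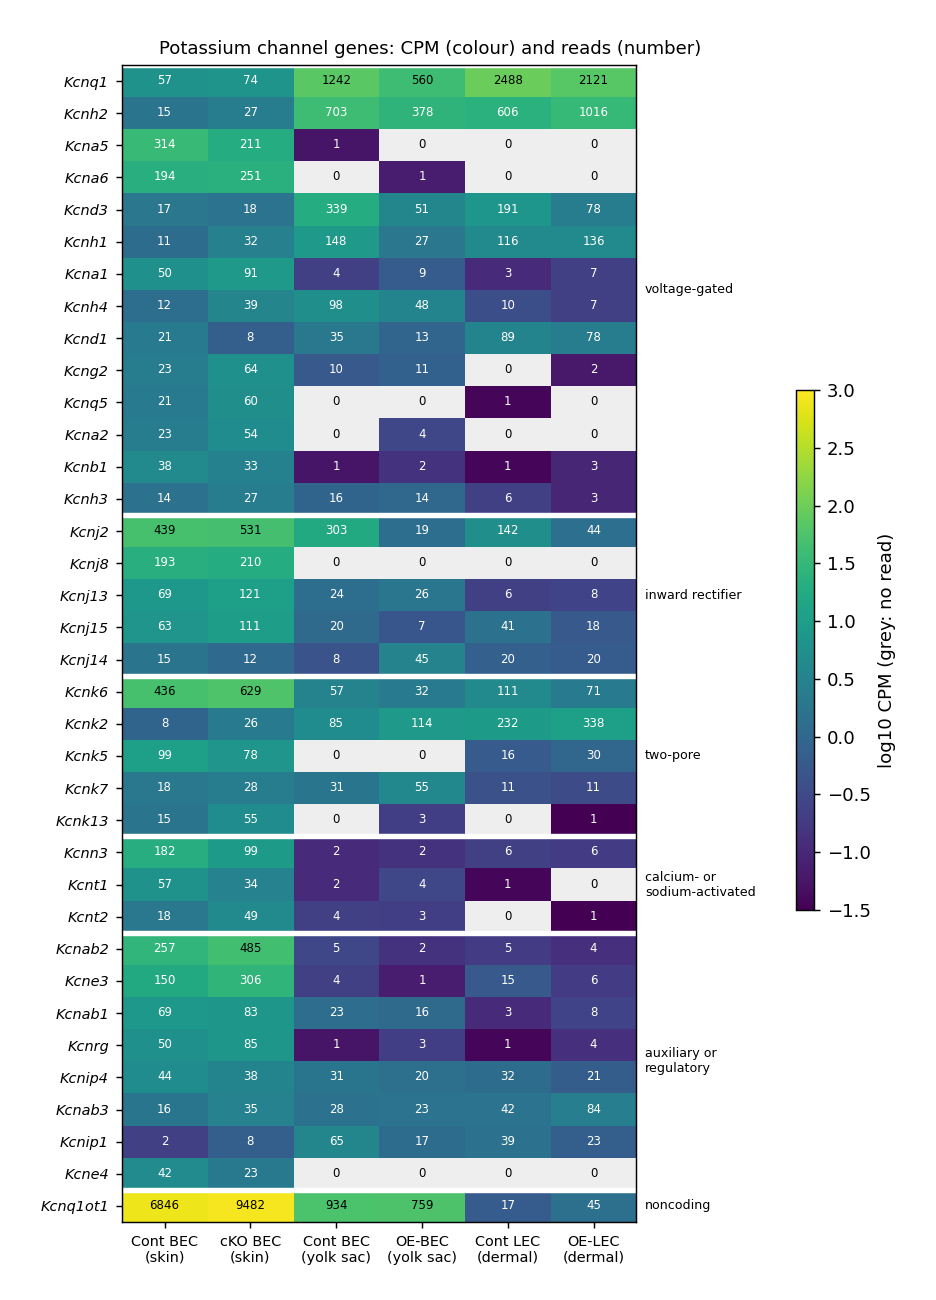
Expression of the 36 potassium channel genes with the highest mean CPM over the 6 libraries (rows, grouped by class) in each library (columns). Colour gives log10 CPM, grey marks genes without a read, and the number in each cell is the read count, so Kcnq1 and Kcnh2 stand out in the 4 cultured libraries and Kcna5, Kcna6, Kcnj8 and Kcnk6 in the 2 skin libraries.

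The classes made up different shares of the coding potassium channel CPM in skin and culture. Voltage-gated subunits were 27.4% and 26.2% of it in skin Cont and cKO BECs, 77.9% and 72.3% in Cont and OE-BECs, and 82.4% and 82.3% in Cont and OE-LECs. Inward rectifiers summed to 93.9 and 92.7 CPM in skin, 21.2 and 7.75 CPM in Cont and OE-BECs, and 8.19 and 3.32 CPM in Cont and OE-LECs. Auxiliary subunits took 20.7% and 25.4% in skin and 3.47% to 6.37% in culture. Calcium- or sodium-activated channels took 9.02% and 6.45% in skin and at most 0.764% in the cultured libraries, where their sums lay between 0.509 and 1.03 CPM.

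**Figure D2:**
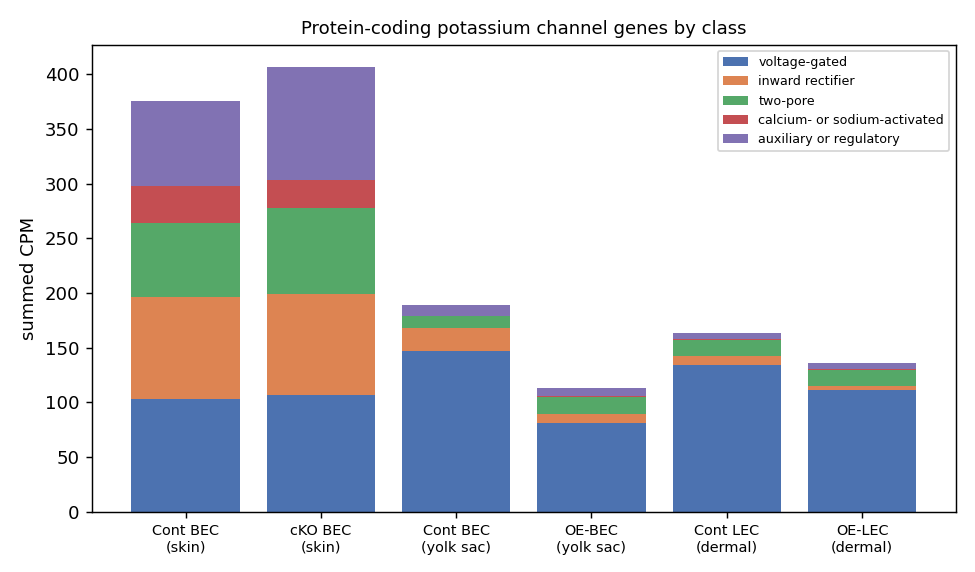
Summed CPM of the protein-coding potassium channel genes in each library, stacked by class (1 library a bar, no error). The voltage-gated block lies between 81.5 and 147 CPM in all 6 libraries, whereas the other classes together are larger in the 2 skin bars than in the 4 cultured bars.

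Kcnq1 and Kcnh2, the genes of the delayed rectifiers that repolarize heart muscle, led in culture. Kcnq1 had 57 and 74 reads in skin Cont and cKO BECs (6.43 and 6.68 CPM), 1242 and 560 reads in Cont and OE-BECs (70.2 and 40.2 CPM), and 2488 and 2121 reads in Cont and OE-LECs (95.3 and 68.3 CPM). Kcnh2 had 1.69 and 2.44 CPM in skin, 39.7 and 27.1 CPM in Cont and OE-BECs, and 23.2 and 32.7 CPM in Cont and OE-LECs. Both were higher in each of the 4 cultured libraries than in either skin library. Per kilobase of exon, Kcnq1 had the highest level of all potassium channel genes in the 4 cultured libraries, with 17.2 and 9.82 CPM per kilobase in Cont and OE-BECs and 23.3 and 16.7 in Cont and OE-LECs. Kcnh2 came after it, with 8.20 and 5.60 CPM per kilobase in BECs and 4.79 and 6.76 in LECs. Kcnk2, a mechanosensitive two-pore channel gene, Kcnip1, which encodes a Kv4 partner, and Kcnd3 were the other genes with a higher CPM in all cultured libraries, though for Kcnip1 by little, with 0.741 CPM in OE-LECs and 0.722 CPM in the higher skin library.

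In skin BECs the highest levels per kilobase belonged to other genes. Skin Cont BECs had 12.4 CPM per kilobase for Kcna5 (a voltage-gated channel of vascular and heart muscle), 11.9 for Kcnk6 (a two-pore channel), 9.51 for Kcne3 (an auxiliary subunit of Kcnq1), 9.10 for Kcnj2 and 8.55 for Kcnj8 (the pore of the vascular ATP-sensitive channel). In the library labelled cKO, Kcne3 led on 306 reads, followed by Kcnk6 with 13.7 CPM per kilobase. Kcna5 had 314 and 211 reads in the skin libraries, 1 read in Cont BECs and 0 in the other 3 cultured libraries. Kcnj8 had 193 and 210 reads in skin and 0 in all cultured libraries. Abcc9, which encodes the sulfonylurea receptor that assembles with the Kcnj8 channel, had 2478 and 2459 reads in skin and at most 1 in culture. Kcna6 had 194 and 251 reads in skin and at most 1 read in culture, but 39.6% of its exon bases lie under exons of a gene on the opposite strand. The skin libraries also held 574 and 459 CPM of 7 pericyte and smooth muscle markers and 3436 and 5242 CPM of 6 macrophage markers, against at most 6.22 CPM and 93.8 CPM in culture, where nearly all of the latter was Cd68 and the macrophage markers Adgre1 and C1qa and the pericyte marker Rgs5 had 0 reads, and the part of such cells in the skin levels was not tested.

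The noncoding Kcnq1ot1, the antisense transcript of the imprinted Kcnq1 domain, took most potassium channel reads in skin. It had 6846 and 9482 reads in skin Cont and cKO BECs (772 and 855 CPM), 934 and 759 in Cont and OE-BECs (52.8 and 54.5 CPM), and 17 and 45 in Cont and OE-LECs (0.651 and 1.45 CPM). These were 67.2% and 67.7% of the reads of the 98 genes in skin, 21.8% and 32.6% in cultured BECs and 0.397% and 1.06% in LECs. Its exon sequence is 93092 bases long, so that the level per kilobase in skin Cont BECs was 8.30 CPM, below that of Kcnj8. Kcnq1ot1 (chromosome 7, 143203458 to 143296549, minus strand) lies within Kcnq1 (143106362 to 143427042, plus strand), and 2.96% of the Kcnq1 exon bases lie under it. How the counting used the strand is not settled from the sources used here, so reads where the exons of a gene and of its antisense partner overlap cannot be told apart.

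In the comparison of the library labelled cKO with Cont skin BECs, 60 of the 98 genes had at least 10 reads in the pair, 24 had 1 to 9 and 14 had none. Kcnk1 and Kcnip1 were more than 3-fold higher in cKO, and Kcnj1 and Kcnd1 more than 3-fold lower, on counts normalized by the median of ratios. These are 3.33% of the 60 genes in each direction, beside 4.24% higher and 1.7% lower of the 15554 genes with at least 10 reads. The counting interval left out no change for 15 genes that were higher (25%) and 7 that were lower (11.7%), beside 23.1% and 25.4% of all genes. Such an interval narrows with more reads, and the shares of all genes, here and in the cultured pairs, were not matched for read depth. The median log2 ratio was 0.30 for the potassium channel genes and 0.00 for all genes, with 39 higher and 21 lower. By class, 16 of 23 voltage-gated subunits, 5 of 7 two-pore channels, 5 of 7 calcium- or sodium-activated channels, 4 of 8 inward rectifiers and 7 of 13 auxiliary subunits were higher. The 3-fold shares rest on 2 genes in each direction.

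Kcnk1, the gene of a two-pore channel (chromosome 8, 125995170 to 126030685), had 4 reads in Cont and 29 in cKO, a log2 ratio of 2.48 (0.97 to 4.45). Kcnip1 had 2 and 8 reads, a log2 ratio of 1.62 whose interval of -0.70 to 4.90 includes no change. Kcnj1, an inward rectifier best known from the kidney tubule, had 26 and 6 reads (-2.49, -4.06 to -1.18). Kcnd1, a Kv4 channel gene, had 21 and 8 reads (-1.77, -3.15 to -0.54). None of these 4 genes exceeded 2.93 CPM in either skin library.

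Among the genes known for endothelial or vascular hyperpolarization, 2 of 10 were lower beyond counting error in cKO and 3 were higher, beside 25.4% lower and 23.1% higher of all genes. Kcnn3, the small-conductance calcium-activated channel of endothelium, had 182 reads in Cont and 99 in cKO (20.5 and 8.93 CPM), a log2 ratio of -1.26 (-1.62 to -0.90). Kcna5 had 35.4 and 19.0 CPM (-0.95, -1.21 to -0.70). Kcne3 was higher, with 16.9 and 27.6 CPM (0.65, 0.36 to 0.94), as were Kcnq5, a Kv7 channel of vascular muscle, with 2.37 and 5.41 CPM (1.14, 0.40 to 1.93) and Kcnma1, the large-conductance calcium-activated channel, with 0.903 and 2.71 CPM (1.53, 0.37 to 2.86). The intervals of Kcnj2 (49.5 and 47.9 CPM, log2 ratio -0.10, -0.29 to 0.08), Kcnk6 (49.2 and 56.7 CPM, 0.15, -0.03 to 0.33) and Kcnj8 (21.8 and 18.9 CPM, -0.26, -0.54 to 0.03) included no change. Kcnn4, the intermediate-conductance calcium-activated channel, had 14 and 28 reads and Kcnmb1, the beta subunit of Kcnma1, 9 and 11, and their intervals of -0.35 to 1.66 and -1.50 to 1.36 included it as well.

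Other genes with intervals that left out no change were mostly in the low range. Kcnab2, a cytoplasmic beta subunit, was the highest of them among coding genes, with 257 and 485 reads (log2 ratio 0.54, 0.32 to 0.76). Kcnk13, Kcns1, Kcnh4, Kcnk2, Kcnh1, Kcng2, Kcnt2, Kcnn1 and Kcna2 were also higher in cKO, with log2 ratios between 0.85 and 1.58 and at most 64 reads in a library. Kcnq1ot1 was higher by 0.09 (0.05 to 0.14). Kcnk5, Kcnt1 and Kcne4 were lower, with log2 ratios of -0.72, -1.12 and -1.25. Kcna6 had 221 and 220 normalized counts (-0.01, -0.28 to 0.27).

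Markers of other cells moved with the same pair of libraries. All 8 blood endothelial markers were lower in cKO (summed CPM 5983 in Cont and 3599 in cKO, median log2 ratio -0.75), all 6 macrophage markers were higher (3436 and 5242 CPM), 3 of 5 mast cell markers were higher (2137 and 3037 CPM), and 6 of 7 pericyte and smooth muscle markers were lower (574 and 459 CPM). The other mast cell markers were lower, Mrgprb1 past 3-fold on 191 and 4 reads (log2 ratio -5.96) and Tpsb2 by -0.17. Of the 5 keratinocyte markers 3 were higher (84.3 and 124 CPM in sum), with Krt1 on 33 and 254 reads and Krt10 on 51 and 263 reads past 3-fold, and 4 of 5 fibroblast markers were lower (1787 and 1345 CPM). With the 8 endothelial markers as the scale instead, an alternative chosen after seeing the data, the median of all genes moved from 0.00 to 0.79, 36 of the 60 potassium channel genes were higher beyond counting error and 2 lower, beside 79.1% higher and 2.14% lower of all genes, and 18 were more than 3-fold higher and 1 lower, beside 12.1% and 0.72%. On that scale Kcnn3 had a log2 ratio of -0.47 (-0.84 to -0.11) and Kcnj1 of -1.71 (-3.28 to -0.39). The intervals of Kcna5 (-0.16, -0.42 to 0.09), Kcnd1 (-0.98, -2.37 to 0.25) and Kcnk5 (0.066) included no change on that scale. So did those of Kcne4 (-0.46, -1.26 to 0.31) and Kcnt1 (-0.34, -0.99 to 0.30) on that scale. Kcnj2 (0.68, 0.50 to 0.87), Kcnk6 (0.94) and Kcnj8 (0.53, 0.24 to 0.82) were higher on it. The part of these cells in the potassium channel ratios was not tested.

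**Figure D3:**
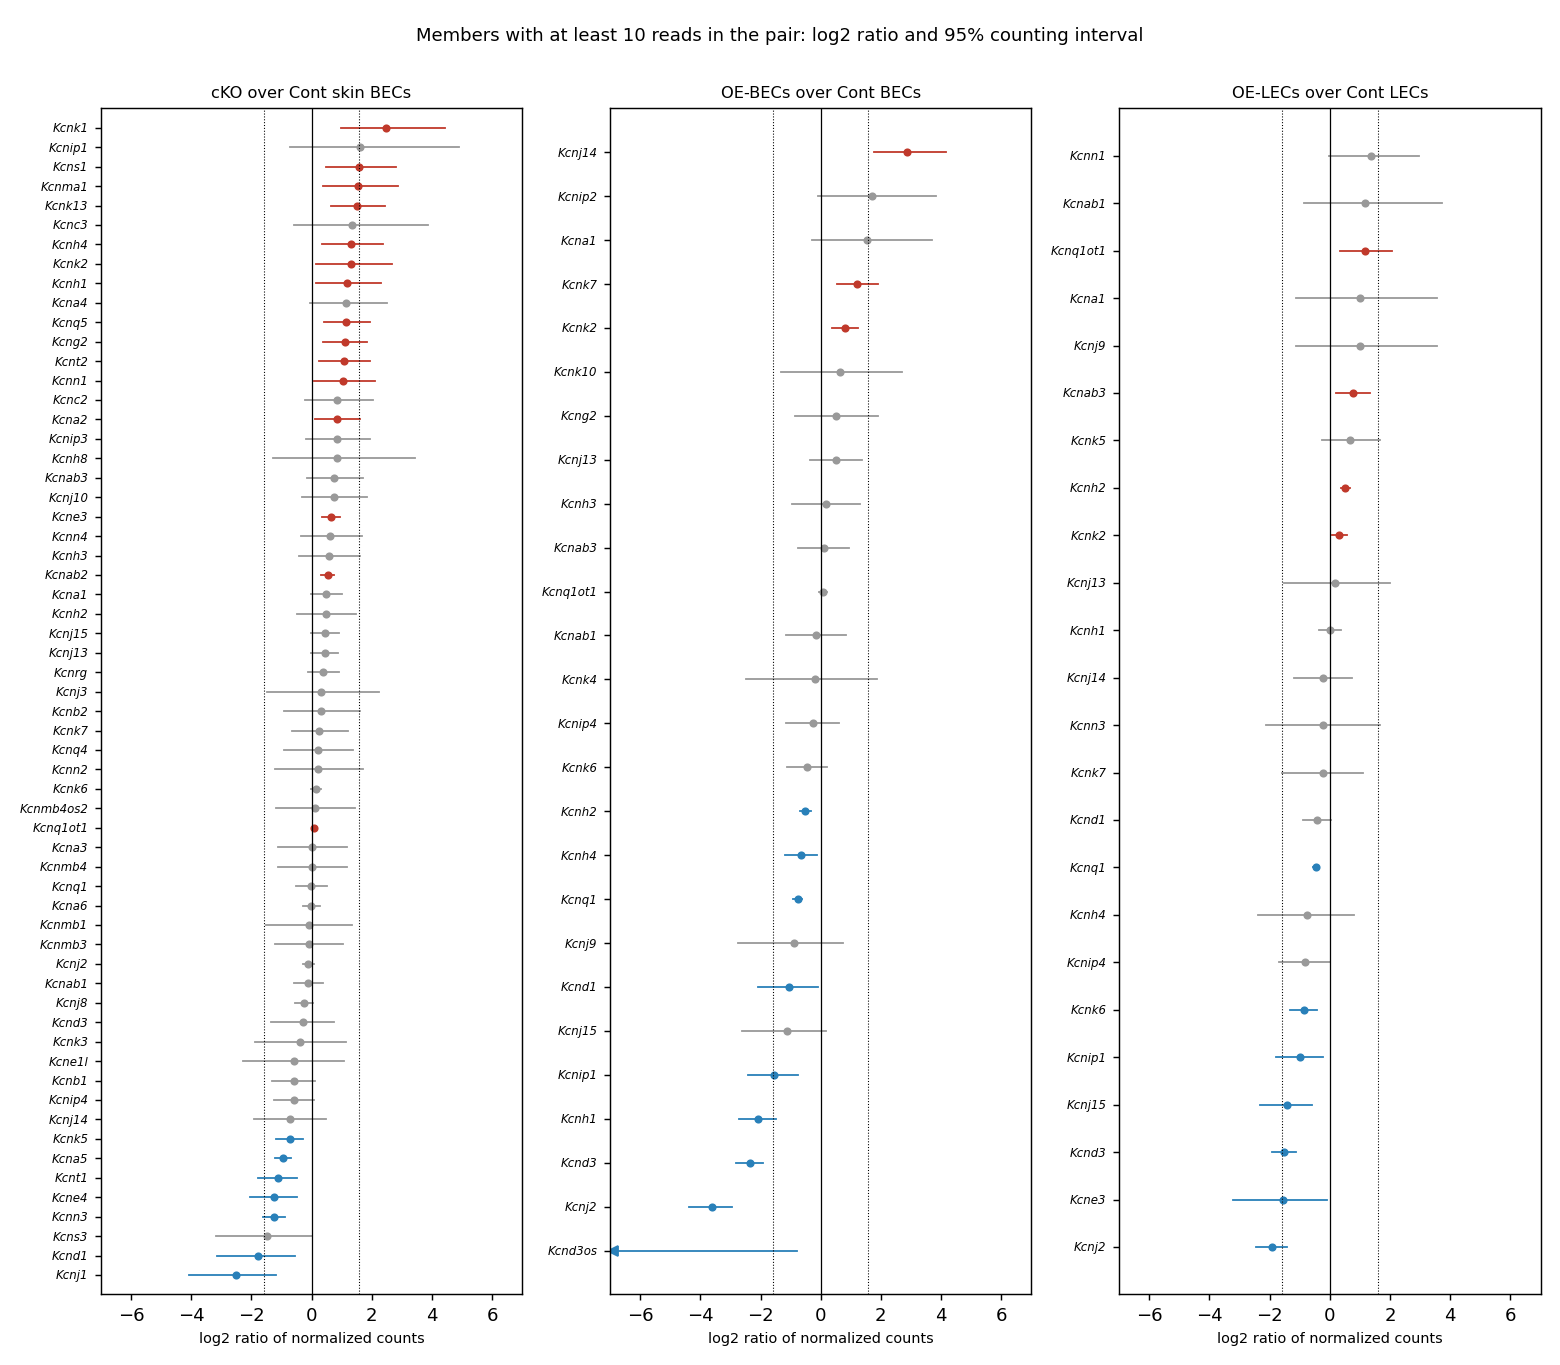
Log2 ratio of normalized counts (x axis) of each potassium channel gene with at least 10 reads in the pair (y axis) for cKO over Cont skin BECs (60 genes), OE-BECs over Cont BECs (26 genes) and OE-LECs over Cont LECs (24 genes), 1 library against 1. Bars are exact 95% counting intervals, dotted lines mark 3-fold, red and blue mark intervals above and below no change, grey intervals that include it, and the arrow marks Kcnd3os, which had 0 reads in OE-BECs. Kcnj2 and Kcnd3 lie near the lower end in both overexpression panels.

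In OE-BECs, 26 genes had at least 10 reads in the pair, 34 had 1 to 9 and 38 had none. By the 3-fold rule 2 genes were higher (7.69%) and 4 lower (15.4%), beside 3.25% and 3.46% of 13396 genes. The counting interval left out no change for 3 higher genes (11.5%) and 9 lower genes (34.6%), beside 27.4% and 30% of all genes, and the median log2 ratio was -0.23 against -0.01. The lower genes were mainly voltage-gated, with 6 of the 9 tested in that class lower beyond counting error and none higher. The 4 lower genes of the 3-fold rule included the noncoding Kcnd3os, which reached the rule on 10 reads against 0. Its bound against a floor of 3 reads, 2.56-fold, lies below 3-fold.

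Kcnj2, the gene of the strong inward rectifier Kir2.1 (chromosome 11, 111066164 to 111076821), had 303 and 19 reads in Cont and OE-BECs (17.1 and 1.36 CPM), a 12.2-fold lower level (log2 ratio -3.61, -4.36 to -2.94). Kcnd3, which encodes Kv4.3 (chromosome 3, 105452330 to 105674002), had 339 and 51 reads (19.2 and 3.66 CPM), 5.10-fold lower (-2.35, -2.80 to -1.92). Kcnh1, an ether-a-go-go channel gene (chromosome 1, 192190774 to 192510159), had 148 and 27 reads (8.37 and 1.94 CPM), 4.20-fold lower (-2.07, -2.72 to -1.47). Kcnd3os, which starts over the 5′ end of Kcnd3 on the opposite strand, had 10 and 0 reads in Cont and OE-BECs, at least 2.56-fold lower against a floor of 3 reads. Kcnd3 exons lie over 12.2% of the Kcnd3os exon bases.

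Kcnj14, another inward rectifier gene (chromosome 7, 45816460 to 45824782), went the other way, with 8 and 45 reads in Cont and OE-BECs, 7.33-fold higher (log2 ratio 2.87, 1.77 to 4.17). Kcnip2, a Kv4 partner, had 4 and 10 reads, and its interval of -0.09 to 3.83 included no change. Per kilobase, Kcnj2 lay above Kcnj14 in Cont BECs (3.15 and 0.166 CPM) and below it in OE-BECs (0.250 and 1.19 CPM). The two-pore genes Kcnk7 and Kcnk2 were higher by log2 ratios of 1.21 (0.55 to 1.89) and 0.81 (0.39 to 1.23). Kcnq1 (-0.77, -0.91 to -0.62) and Kcnh2 (-0.51, -0.70 to -0.33) were lower, as were Kcnip1, Kcnd1 and Kcnh4 with log2 ratios of -1.55, -1.05 and -0.65. All 8 blood endothelial markers were lower in OE-BECs as well (7082 and 4450 CPM in sum), and Rn45s, the ribosomal RNA precursor, made up 5.91% and 10.9% of all reads of Cont and OE-BECs.

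In OE-LECs, 24 genes had at least 10 reads, 29 had 1 to 9 and 45 had none. By the 3-fold rule no gene was higher and 1 was lower (4.17%), beside 1.49% and 0.867% of 13028 genes. The interval left out no change for 4 higher genes (16.7%) and 7 lower genes (29.2%), beside 24.2% and 21.4% of all genes, and the median log2 ratio was -0.23 against 0.00. The gene below 3-fold was Kcnj2, with 142 and 44 reads in Cont and OE-LECs (5.44 and 1.42 CPM), 3.79-fold lower (log2 ratio -1.92, -2.44 to -1.42). Kcnd3, with 191 and 78 reads (7.31 and 2.51 CPM), was 2.87-fold lower and so just short of the rule (-1.52, -1.92 to -1.14).

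Among the other genes of OE-LECs, Kcnq1 was lower by a log2 ratio of -0.46 (-0.55 to -0.38), Kcnip1 by -0.99, Kcnk6 by -0.88, Kcnj15 by -1.42 and Kcne3 by -1.55. Kcnh2 was higher by 0.51 (0.37 to 0.66), Kcnk2 by 0.31 (0.07 to 0.56), the beta subunit gene Kcnab3 by 0.77 (0.22 to 1.34) and Kcnq1ot1 by 1.17 (0.34 to 2.07). Kcnh1 and Kcnj14, past 3-fold in OE-BECs, had 116 and 136 reads and 20 and 20 reads in Cont and OE-LECs, with intervals of -0.37 to 0.37 and -1.20 to 0.74. Of the 8 blood endothelial markers, 7 were lower in OE-LECs (5958 and 5476 CPM in sum).

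**Figure D4:**
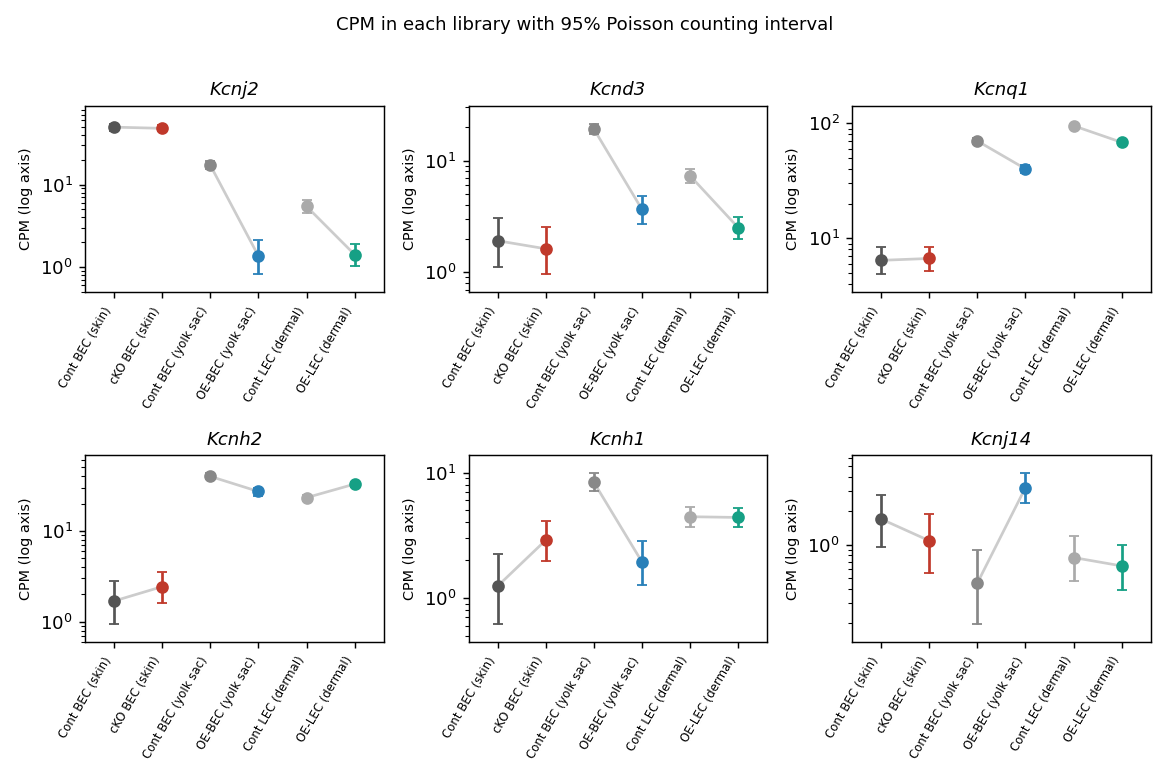
CPM (log axis) of 6 potassium channel genes in each of the 6 libraries, with exact 95% Poisson counting intervals. Grey lines join the 2 libraries of a comparison, and the lines of Kcnj2 and Kcnd3 slope down in both cultured pairs, that of Kcnh2 slopes down in BECs and up in LECs, and in the cultured pairs those of Kcnh1 and Kcnj14 move beyond counting error in BECs and not in LECs.

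Set side by side, 20 genes had at least 10 reads in both cultured pairs, 15 with the same sign and 5 with opposite signs, beside 59.5% of all 12570 such genes with the same sign. The 2 pairs share no library. Intervals left out no change in both pairs for 6 of the 20 genes, beside 32.1% of all genes, and of these 6 Kcnk2 was higher in both, Kcnj2, Kcnd3, Kcnq1 and Kcnip1 were lower in both, and Kcnh2 went in opposite directions. The difference between the lines exceeded counting error for 9 of the 20 genes, beside 50.8% of all genes. The log2 ratio of Kcnj2 was lower by 1.67 in OE-BECs than in OE-LECs (difference -1.67, -2.49 to -0.85), that of Kcnd3 by 0.82 (difference -0.82, -1.39 to -0.25), and that of Kcnh1 by 2.05 (difference -2.05, -2.73 to -1.36), whereas that of Kcnj14 was higher by 3.03 (1.66 to 4.41). The other differences beyond counting error were those of Kcnh2, Kcnq1, Kcnq1ot1, Kcnk2 and Kcnk7.

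The 2 cultured lines are the only repeats of a contrast, and the change they shared was tested with the line as a block. In edgeR's quasi-likelihood test with Benjamini-Hochberg adjustment over 14184 genes, 0.606% of genes were higher and 1.15% lower on overexpression, and of 32 potassium channel genes 0 were higher and 2 lower. Kcnj2 had a shared log2 fold change of -2.70 (SE 0.398, edgeR adjusted p = 0.00570) and Kcnd3 of -1.93 (SE 0.290, edgeR adjusted p = 0.00633). Both were lower in 2 of 2 lines. Kcnq1, also lower in 2 of 2 lines, did not pass the threshold (-0.61, SE 0.163, edgeR adjusted p = 0.0999), and 5 of the 32 genes had an unadjusted p under 0.05, beside 11.4% of all genes. Each gene has 1 residual degree of freedom, so the p-values rest on a spread that edgeR estimates across genes and not on these 2 lines alone. Without the block no gene passed and 176 of all genes had an unadjusted p under 0.05.

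**Figure D5:**
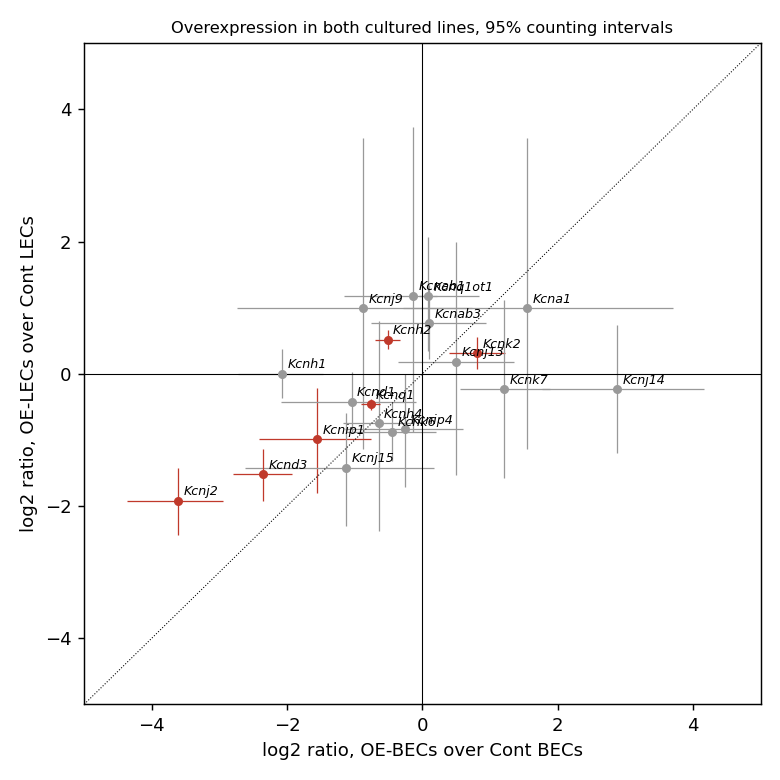
Log2 ratio in OE-BECs over Cont BECs (x axis) against OE-LECs over Cont LECs (y axis) for the 20 potassium channel genes with at least 10 reads in both pairs, with 95% counting intervals as bars and equality as the dotted line. Red marks the 6 genes whose intervals left out no change in both pairs, with Kcnj2 and Kcnd3 farthest down on both axes and Kcnh2 in the upper left.

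In the skin pair the interval of Kcnj2, on 439 and 531 reads, ran from -0.29 to 0.08, and from 0.50 to 0.87 when scaled by the endothelial markers. On that scale the median log2 ratio of all genes was 0.79. Kcnd3 had 17 and 18 reads in skin Cont and cKO BECs (1.92 and 1.62 CPM, log2 ratio -0.30), and its interval of -1.34 to 0.75 is too wide at this depth to show any but large changes. The skin and cultured pairs differ in the intended Dot1l change (deletion or overexpression), tissue and scaling, and their difference was not tested.

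Genes that work together with potassium channels were taken from lists and are given by their counts. Of the 9 channel partner subunits, 6 had at least 10 reads in the skin pair of which 1 was lower beyond counting error and 1 higher, beside 25.4% lower and 23.1% higher of all genes. The lower one was Abcc9 with 280 and 222 CPM (log2 ratio -0.39, -0.47 to -0.31), and the higher one was Lrrc26 on 1 and 10 reads. Scaled by the endothelial markers, Abcc9 had a log2 ratio of 0.40 (0.32 to 0.48), below the median of 0.79 over all genes on that scale. Of 15 pumps and cotransporters that carry potassium, 2 were higher and 3 lower beyond counting error among 12 tested in skin, 2 higher and 3 lower among 8 in OE-BECs, and 7 higher and 1 lower among 8 in OE-LECs. The shares of all genes higher and lower were 23.1% and 25.4% in the skin pair, 27.4% and 30% in the BEC pair, and 24.2% and 21.4% in the LEC pair. Slc12a2, the sodium, potassium and chloride cotransporter, was lower in cKO skin BECs (320 and 223 CPM, log2 ratio -0.58, -0.65 to -0.50). Scaled by the endothelial markers it had a log2 ratio of 0.21 (0.13 to 0.29) there, also below the median of all genes. It was higher in OE-BECs (94.1 and 172 CPM, log2 ratio 0.91) and OE-LECs (158 and 238 CPM, log2 ratio 0.62), each with an interval above no change.

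Among 7 partners of endothelial hyperpolarization, 5 were lower and 1 higher beyond counting error of 7 tested in cKO skin BECs, 3 higher and 3 lower of 6 in OE-BECs, and 5 higher of 5 in OE-LECs, read against the same shares of all genes. Nos3, the endothelial nitric oxide synthase, had 84.5 and 45.5 CPM in skin Cont and cKO BECs (log2 ratio -0.95, -1.12 to -0.78), beside a median of -0.75 for the endothelial markers in the same pair, and -0.16 (-0.33 to 0.00) when scaled by them. Gja4, a gap junction gene of arterial endothelium, had 55.8 and 26.1 CPM there (-1.15, -1.37 to -0.94, and -0.37, -0.58 to -0.15, when scaled by the endothelial markers) and 15 and 0 reads in Cont and OE-BECs. Gja5 was past 3-fold in OE-BECs, with 38 and 6 reads (-2.28, -3.81 to -1.03). Of the 3 intracellular potassium channel genes, Tmem38a and Tmem38b were lower beyond counting error in OE-BECs (log2 ratios -1.37 and -0.96) and none changed beyond it in the other 2 pairs. Of the 4 HCN channel genes, Hcn2 was higher in OE-BECs (3.45 and 5.31 CPM, 0.66, 0.15 to 1.17).

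The floor of 10 reads separated genes on small counts. Just inside it were Kcnip1 and Kcnh8 with 10 reads in the skin pair, Kcnd3os and Kcnk4 with 10 in the BEC pair, and Kcnj9 and Kcna1 with 10 in the LEC pair. Just outside it were Kcng3 and Kcnk4 with 9 reads and Kcnh6 with 8 in the skin pair, and Kcnh3 and Kcnab2 with 9 in the LEC pair.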

How the data were processed

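RNA-seq of 6 mouse libraries was used, 1 for each of 6 conditions. The authors made ScriptSeq v2 libraries, trimmed adapters with skewer 0.2.2, aligned reads to mm10 with STAR 2.7.9a, counted them per gene with VERSE 0.1.5 and deposited raw counts for 24421 gene symbols, 4473 of them without a read. Every one of the deposited count columns belonged to a sample. CPM used the total counts. Pairs were scaled by median-of-ratios size factors. Genes with 10 reads or more over both libraries were called when the 2 normalized counts differed by more than 3 times and the larger reached 5 (skin pair) or 3 (cultured pairs), and exact (Clopper-Pearson) 95% intervals were taken from the reads. Within a pair, with 1 library a group, no test was possible. The change shared by the 4 cultured libraries was fitted with edgeR 4.0.16 (TMM, cell line as a block, at least 10 reads) in R 4.3.3, with DESeq2 1.42.0 as an alternative. Differences between lines had 0.5 added to each count and a normal 95% interval. Python 3.11.15 with numpy 2.4.6, pandas 2.3.3 and scipy 1.17.1 did the rest. The steps were tested on simulated data. GENCODE M21 gave positions for all 98 genes, and RefSeq (GRCm38.p6) the promoters.

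The genes and lists were chosen with earlier results of these data known. Named in full were genes past 3-fold in a pair, the 10 with the highest mean CPM and 10 known for endothelial or vascular hyperpolarization. Others named had an interval that left out no change, were listed by detection or lay near the floor, and were chosen after their values were seen. Alternatives were other scalings, read floors of 1 and 20, 1 added to each normalized count, pore-forming subunits alone and, chosen after seeing the data, scaling by 8 blood endothelial markers. Some results on single genes are not reported here.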

Additional observations from a re-analysis of the deposited data

Results flagged for a closer look

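Kcnh2, the gene of the rapid delayed rectifier, moved in opposite directions in the cultured lines. Its log2 ratio was -0.51 in OE-BECs over Cont BECs (703 and 378 reads) and 0.51 in OE-LECs over Cont LECs (606 and 1016 reads). The difference of -1.03 has a counting interval of -1.26 to -0.79, but with 1 library a condition it was not tested against the spread between replicates. Of the 12570 genes with at least 10 reads in both pairs, 59.5% had the same sign, and the difference exceeded counting error for 50.8%. Opposite changes beyond counting error in both pairs were not counted over all genes.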

How the results depend on the processing

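Of the summary values 109 stayed close to those reported and 17 moved. In cKO over Cont skin BECs, the number of genes more than 3-fold higher went from 2 to 1 with a floor of 20 reads, with pore-forming subunits alone and with 1 added to each normalized count, and to 4 with a floor of 1 read. Scaling that pair by 8 blood endothelial markers, chosen after seeing the data, gave 18 genes more than 3-fold higher and 1 lower, 36 higher and 2 lower beyond counting error, and a median log2 ratio of 1.09. The median log2 ratio over all genes was 0.79 under that scaling. Abcc9 (0.40) and Slc12a2 (0.21) changed there from lower to higher beyond counting error, though both lay below that median. Kcnk5 (0.066) changed from lower to an interval that includes no change. So did Kcne4 (-0.46), Kcnt1 (-0.34), Kcna5 (-0.16) and Kcnd1 (-0.98), whose log2 ratios stayed negative. Besides Kcnk5, no named potassium channel gene that was called or had an interval that left out no change turned direction in the settings run. In OE-BECs, the number more than 3-fold higher went from 2 to 1 under the same 3 settings and to 11 with a floor of 1 read. In OE-LECs, a floor of 1 read gave 3 genes more than 3-fold higher and 2 lower, and with pore-forming subunits alone 2 genes were higher beyond counting error. A lower floor tests more genes on few reads, and pore-forming subunits are fewer genes, by construction.

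The labels give no replicate numbers, and the shared change was fitted within each cell line, with the line as the replicate block. With no replicate block, 0 potassium channel genes passed the edgeR threshold, Kcnj2 had log2 -3.02 and Kcnd3 -2.09 (edgeR adjusted p = 0.99998 for both), and 2 of them and 176 of all genes had an unadjusted p under 0.05. In the other alternatives Kcnj2 and Kcnd3 still passed, with adjusted p of 0.000103 to 0.0446 and 0.000380 to 0.0421 (edgeR and DESeq2). Of all genes, 249 passed in the reported edgeR fit, 86 with median-of-ratios factors, 94 with the default low-count filter, 458 with at least 1 read, 219 in DESeq2 and 0 without the block.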
